A study of Mus musculus with 6 samples.

Results

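The AP-1 family genes and Atf3 were followed in whole testes of newborn mice in which the chromatin regulator Arid4b is disrupted in Sertoli cells, the somatic cells that surround the germ cells. The 10 genes were taken by symbol from a table of 22320 genes, and all 10 were found: Jun, Junb, Jund, Fos, Fosb, Fosl1, Fosl2, Atf3, Batf and Batf3. In all, 2 groups of 3 pools, each pool with 4 testes at postnatal day 1.5, were sequenced. Arid4bSCKO testes had the genotype Arid4b-/Flox; Amh-cre and control testes Arid4b+/Flox; Amh-cre, both on a hybrid C57BL6/J and 129/SvEv background. The floxed allele and the Cre were thus present in both groups, and the null allele of the Arid4bSCKO mice was not limited to the cells that express the Amh promoter. Values per pool were not analysed here. The authors' table gives for each gene the mean of each group, an unadjusted p, a false discovery rate (FDR) and a log2 ratio of medians.

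AP-1 is a dimer of basic leucine zipper (bZIP) proteins, in which Jun proteins pair with each other or with Fos proteins and bind a short palindromic DNA element. Many of its genes are immediate-early genes, switched on within minutes of growth factor, cytokine or stress signals through mitogen-activated protein kinases, and their transcripts decay fast. ATF3 is a stress-induced bZIP protein that can pair with Jun, and BATF proteins pair with Jun in cells of the immune system.

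The sequences before the start sites of the members are given as a description. RefSeq (GRCm38.p6, the assembly of the mm10 build) gave a promoter for 9 of the 10 genes, Fosl1 being the other. The 250 bases before the start site are shown for Atf3 and Junb, which differed most, and for Jun and Fos, the founding pair of AP-1. They lie at chr1:191183334-191183583 (minus strand), chr8:84978749-84978998 (minus strand), chr4:95052223-95052472 (minus strand) and chr12:85473640-85473889 (plus strand). Each runs 5′ to 3′ along the gene, and capitals mark the motif matches described after them.
Atf3: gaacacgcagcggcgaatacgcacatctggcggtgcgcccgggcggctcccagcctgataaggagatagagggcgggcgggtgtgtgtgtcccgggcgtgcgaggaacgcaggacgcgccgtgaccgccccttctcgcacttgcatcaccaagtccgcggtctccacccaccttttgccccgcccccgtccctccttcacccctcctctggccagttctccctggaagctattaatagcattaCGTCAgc
Junb: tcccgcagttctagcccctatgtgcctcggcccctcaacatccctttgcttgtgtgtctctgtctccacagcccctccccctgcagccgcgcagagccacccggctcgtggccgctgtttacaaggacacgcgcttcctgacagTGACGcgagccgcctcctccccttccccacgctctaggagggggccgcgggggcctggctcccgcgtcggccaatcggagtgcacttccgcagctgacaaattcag
Jun: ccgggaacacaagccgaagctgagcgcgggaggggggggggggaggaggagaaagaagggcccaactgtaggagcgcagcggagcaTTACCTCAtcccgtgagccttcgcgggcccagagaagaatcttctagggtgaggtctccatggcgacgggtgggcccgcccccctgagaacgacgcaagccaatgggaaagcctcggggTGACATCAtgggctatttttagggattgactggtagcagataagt
Fos: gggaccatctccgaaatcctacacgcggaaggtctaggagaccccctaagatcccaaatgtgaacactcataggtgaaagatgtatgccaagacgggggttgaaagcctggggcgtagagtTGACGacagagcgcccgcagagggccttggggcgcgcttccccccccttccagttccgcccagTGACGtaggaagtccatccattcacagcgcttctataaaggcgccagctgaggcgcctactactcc

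The capitals in Atf3, Junb and Fos mark TGACG, the core of the cyclic AMP response element, searched on both strands. It was held by 5 of the 9 promoters (Atf3, Junb, Fos, Fosb and Batf) and by 17.8% of all 32851 promoters of the same length. Fos had it at positions -129 and -66 (first base, counted back from the start site), Fosb at -60, Junb at -106 and Batf at -98. In Atf3 it lay on the opposite strand at -7, and the table's Atf3 row also spans a start site further upstream whose promoter is not shown. The capitals in Jun mark TTACCTCA at -164 and TGACATCA at -45, known AP-1-like elements of that gene, held by 0.728% and 2.93% of all promoters. The full element TGACGTCA (1.55% of promoters), the AP-1 site TGAGTCA (4.46%) and the CArG box of serum response factor (1.47%) were in none of the 9 windows. Bases farther than 250 before the start site were not searched, so elements there would be missed. For 7 of the 9 promoters the bases just after the start site lay in an annotated transcript of the gene. The Jund window ends at 70697738, and the annotated Jund transcript starts at 70698949. Matches of letters are descriptions and do not show binding.

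Levels are the authors' group means of log2(normalized count + 1), and a positive difference means a higher mean in Arid4bSCKO. A mean and a p-value together limit where single pools can lie, because they fix the summed spread of the 6 pools around their group means. A member's pools are called separated where this spread is too small for any Arid4bSCKO pool to reach any control pool, which for 3 against 3 pools holds at any deposited p up to 0.0474. A gene is called where the Benjamini-Hochberg adjusted p of a limma test, with the spread moderated across 19095 genes at a mean level of at least 1, was below 0.05. All 10 members met that level minimum.

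Of the 10 members, 6 were called higher in Arid4bSCKO (Atf3, Junb, Fosl1, Fosb, Jun and Jund) and 0 lower, against 7.37% of all tested genes called higher. The pools of 5 members were separated with Arid4bSCKO higher, against 11.1% of tested genes, and the same 5 had a deposited p below 0.05 (11.4% of tested genes higher at that p). None of the 10 (0) passed the authors' FDR of 0.05, which 0.26% of the 22320 genes did, and their FDR in the authors' deposited table ran from 0.0734 for Atf3 to 0.957 for Batf3. The median difference of the 10 was 0.97, beside -0.035 for all tested genes.

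**Figure D1:**
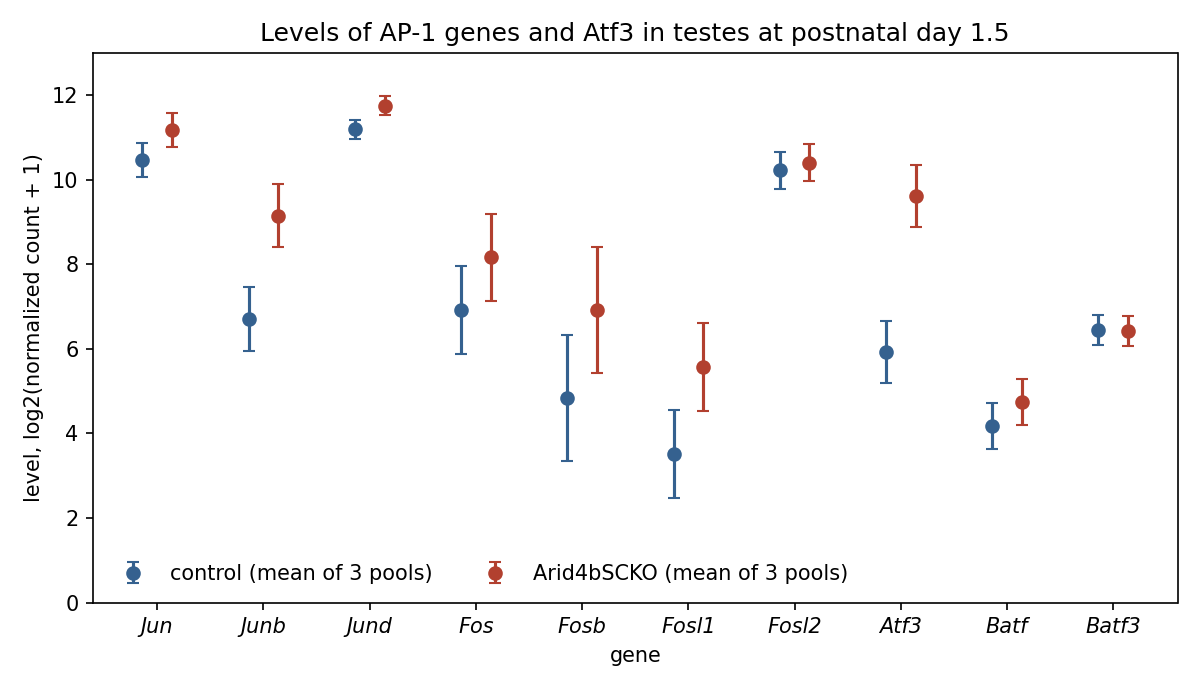
Group mean levels of the 10 genes, as log2(normalized count + 1), in control (blue) and Arid4bSCKO (red) testes; points are the authors' means of 3 pools and bars the farthest that any 1 pool can lie from its group mean. Atf3 moved from 5.92 to 9.62 and Junb from 6.70 to 9.16 with bars far apart, while the Batf3 points at 6.45 and 6.42 lie side by side; bars of 2 groups cannot both be reached at once, so those of Jun and Fosl1 touch although their pools were separated.

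Among the Jun proteins, which can form dimers with each other and with every Fos protein, Junb differed most. JunB is an immediate-early member that often opposes c-Jun in the control of cell growth. Junb (chromosome 8, 84974484 to 84978748) had a mean level of 6.70 in control and 9.16 in Arid4bSCKO, and no control pool can have been above 7.45 and no Arid4bSCKO pool below 8.40. Every Arid4bSCKO pool therefore exceeded every control pool, by at least 1.39 log2 units. The difference was 2.46 (95% interval 1.41 to 3.50), or 5.49-fold, with a limma adjusted p of 8.12e-04. Its row in the table overlaps the end of Prdx2 on the opposite strand, which differed by 0.12.

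Jun, the founding member that encodes c-Jun, rose less. Its level (chromosome 4, 95049036 to 95052222, a single exon) was 10.47 in control and 11.17 in Arid4bSCKO. The pools were separated by at least 0.13 log2 units. The difference was 0.70 (95% interval 0.14 to 1.26), or 1.62-fold, with an adjusted p of 0.0109. Jund, the member that is expressed steadily in many resting cells, had the smallest rise of the 3. Its row spans 70697739 to 70700616 on chromosome 8, and the shorter annotated transcript within it is a single exon. The level of Jund was 11.20 in control and 11.76 in Arid4bSCKO, with every Arid4bSCKO pool above every control pool by at least 0.24. The difference of 0.56 (0.25 to 0.87), or 1.47-fold, had an adjusted p of 0.0044, and its spread between pools (SD 0.14) was the smallest of the 10 members. The 95% interval of Junb lay above those of Jun and Jund without overlap. Differences between members were not tested, since the same pools give them all.

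The Fos proteins cannot pair with each other and need a Jun partner. Fosl1, which encodes Fra-1, a member lacking the strong activation domain of c-Fos, had a mean level of 3.51 in control and 5.57 in Arid4bSCKO. These levels correspond to about 8.45 and 34.6 reads per library. No pool of control can have been above 4.54, and the pools were separated by at least 0.60 log2 units. The difference was 2.06 (95% interval 0.62 to 3.50), or 4.18-fold, with an adjusted p of 0.00914. Fosl1 (chromosome 19, 5447698 to 5455938) overlaps Ccdc85b on the opposite strand, which differed by 0.42.

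Fosb, an immediate-early gene like Fos, was at 4.84 in control and 6.92 in Arid4bSCKO. Its difference of 2.07 was close to that of Fosl1, but the spread was the widest of the family (SD 0.91), and its pools need not be separated. The deposited 95% interval ran from -0.0037 to 4.14. The gene (chromosome 7, 19302696 to 19310045) was called at an adjusted p of 0.0463 and was not called when genes below the level minimum were tested too (0.0516).

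Fos (chromosome 12, 85473901 to 85477270), which encodes c-Fos, was not called. Its level was 6.92 in control and 8.17 in Arid4bSCKO, a difference of 1.24 with a 95% interval of -0.19 to 2.68 and an adjusted p of 0.0822. The authors' log2 ratio of medians was larger, at 1.54. Fos passed when the limma test kept the trend of the spread and dropped robust fitting (adjusted p = 0.0367), but not when both were dropped (adjusted p = 0.166). Fosl2, which encodes Fra-2, was at 10.22 in control and 10.41 in Arid4bSCKO. Its difference of 0.18 had an interval of -0.43 to 0.79, so a rise beyond 0.79 log2 units lay outside the interval. The adjusted p of Fosl2 (chromosome 5, 32136472 to 32157839) was 0.493.

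Atf3, the stress-induced repressor and activator of the ATF/CREB family, differed most of the 10. Its level (chromosome 1, 191170297 to 191218039, minus strand) was 5.92 in control and 9.62 in Arid4bSCKO. No control pool can have been above 6.66 and no Arid4bSCKO pool below 8.89, so the pools were apart by at least 2.66 log2 units. The difference was 3.70 (95% interval 2.68 to 4.71), or 12.95-fold, and the adjusted p was 6.59e-05. On these group means, 48.6 reads per library in control stood against 583 in Arid4bSCKO. It ranked 17 among the 19095 tested genes by difference, between Rasl10a at 3.73 and the unnamed transcript AK084486 at 3.69. The deposited FDR of Atf3, 0.0734, was the lowest of the family.

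The BATF genes encode short bZIP proteins without an activation domain. Batf (chromosome 12, 85686720 to 85709087) was at 4.17 in control and 4.75 in Arid4bSCKO, about 13.8 and 19.2 reads per library. Its difference of 0.58 (95% interval -0.17 to 1.33) was not called, with an adjusted p of 0.287. Batf3, which is needed for one lineage of dendritic cells, was at 6.45 and 6.42, a difference of -0.02 (-0.52 to 0.47) with an adjusted p of 0.957. A decrease of more than 0.52 or an increase of more than 0.47 log2 units lay outside that interval. Batf3 (chromosome 1, 191097880 to 191108943) lies 61351 bases from Atf3, so the member with the largest difference and the one with the smallest are neighbours. Fos and Batf, neighbours on chromosome 12, lie 209396 bases apart, with differences of 1.24 and 0.58.

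**Figure D2:**
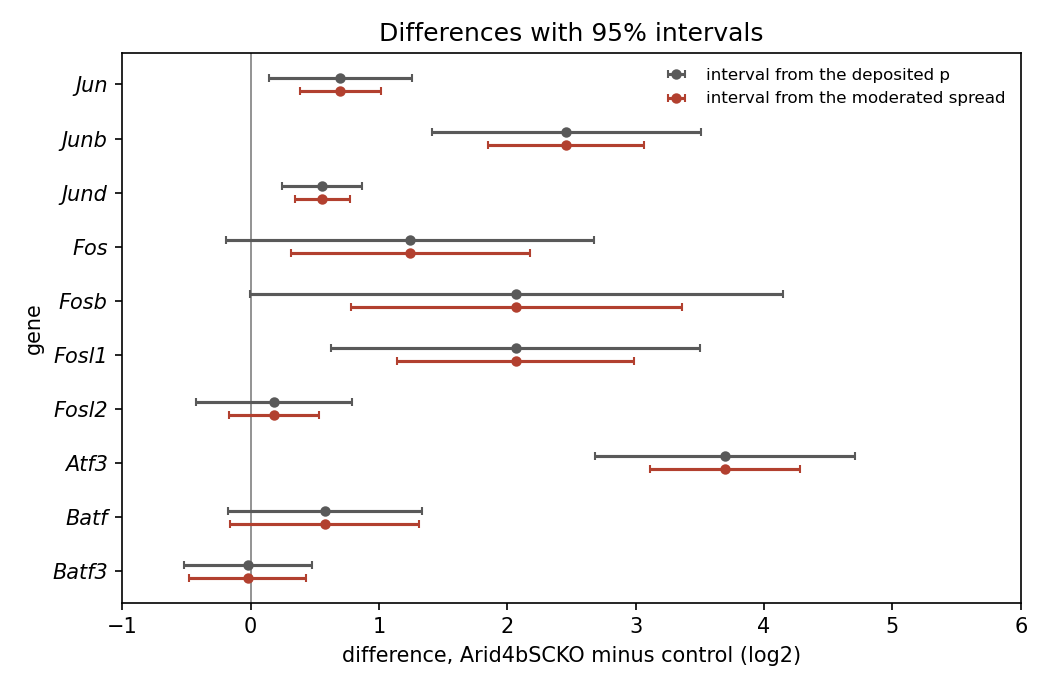
Difference between the groups (Arid4bSCKO minus control, log2) for each gene, with the 95% interval from the deposited p (grey) and from the spread moderated across genes (red). The grey interval excludes 0 for 5 genes and the red one for 7, with Atf3 at 3.70 farthest from 0 and Batf3 at -0.02 nearest.

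Levels of different genes were compared per kb of transcript, as log2 of the normalized count per kb. In control testes Jund stood highest at 10.46, followed by Jun at 8.80 and Fosl2 at 7.51. Batf3 (6.75), Fos (5.83), Junb (5.83), Atf3 (4.91) and Batf (4.15) came next, and Fosb (2.87) and Fosl1 (2.48) were lowest. Neighbours in this order differed by more than the joint SD of their pools except Fos and Junb, and Fosb and Fosl1. The joint SD is the root of the summed squared SDs of the 2 genes.

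In Arid4bSCKO testes Jund (11.02) and Jun (9.50) remained the top pair per kb, but Atf3 (8.63) and Junb (8.30) stood next, where control had them below Fosl2 and Batf3. Atf3 and Junb did not differ from each other beyond their joint SD in Arid4bSCKO. Fosl2 (7.70), Fos (7.08) and Batf3 (6.73) followed, and Fosb (4.98), Batf (4.76) and Fosl1 (4.64) closed the order within their joint SDs. Fosl2 and Fos, and Fos and Batf3, were also within them. The length of Jund in the annotation used, 1668 bases, is shorter than the 2878 bases its row spans. Over the longer length its level per kb was 9.67 in control and 10.23 in Arid4bSCKO, still the highest in both groups.

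As shares of the summed normalized count per kb of the 10 genes, with the annotated lengths, Jund made up 60.8% in control and 51.3% in Arid4bSCKO. Atf3 went from 1.30% to 9.80% and Junb from 2.45% to 7.79%, while Jun was at 19.2% and 17.9%. The 3 Jun genes together made up 82.4% and 77.0%, and the 4 Fos genes 10.9% and 9.90%. The sum itself was 2318 in control and 4039 in Arid4bSCKO, a ratio of 1.74. With Jund over its longer span, a setting chosen after seeing the data, it made up 47.3% in control and 38.0% in Arid4bSCKO. Atf3 was then at 1.74% and 12.5%, Junb at 3.30% and 9.94% and Jun at 25.8% and 22.8%, of sums of 1726 and 3167. These shares come from group means on the log scale and carry no error of their own.

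**Figure D3:**
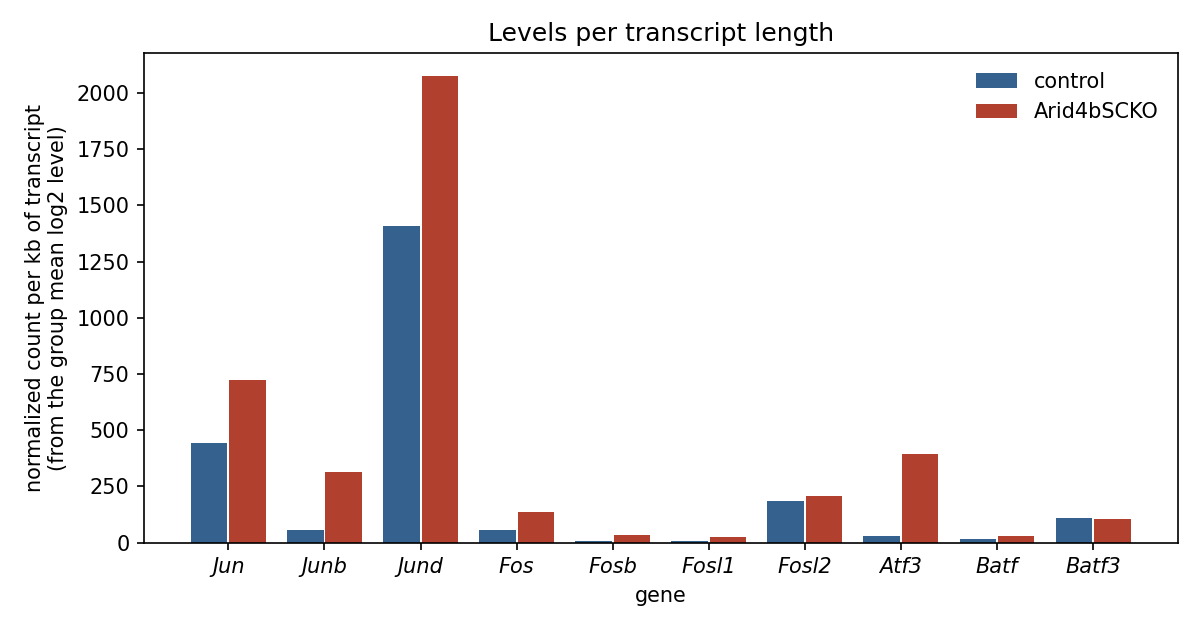
Normalized count per kb of transcript for each gene in control (blue) and Arid4bSCKO (red), taken back from the group mean log2 level, on a linear axis from 0 and over the annotated lengths, with no error bars because values per pool were not analysed here. Jund is the tallest bar in both groups, with 60.8% of the control sum and 51.3% of the Arid4bSCKO sum, and the Atf3 and Junb bars are short in control and visible in Arid4bSCKO.

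Depth and transcript length were compared with these values. The groups were read to about 17.5 M (Arid4bSCKO) and 18.6 M (control) reads per library (M, mega), as estimated from the values of genes with single reads. The difference also fell with transcript length across 17672 genes (rank correlation -0.21, a description across genes that are not independent). With a smooth trend over length removed, the same number of members, 6, was called, against 8.51% of the genes with a length called higher. Atf3 was then at 3.68, Junb at 2.42, Jund at 0.51 and Jun at 0.75.

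**Figure D4:**
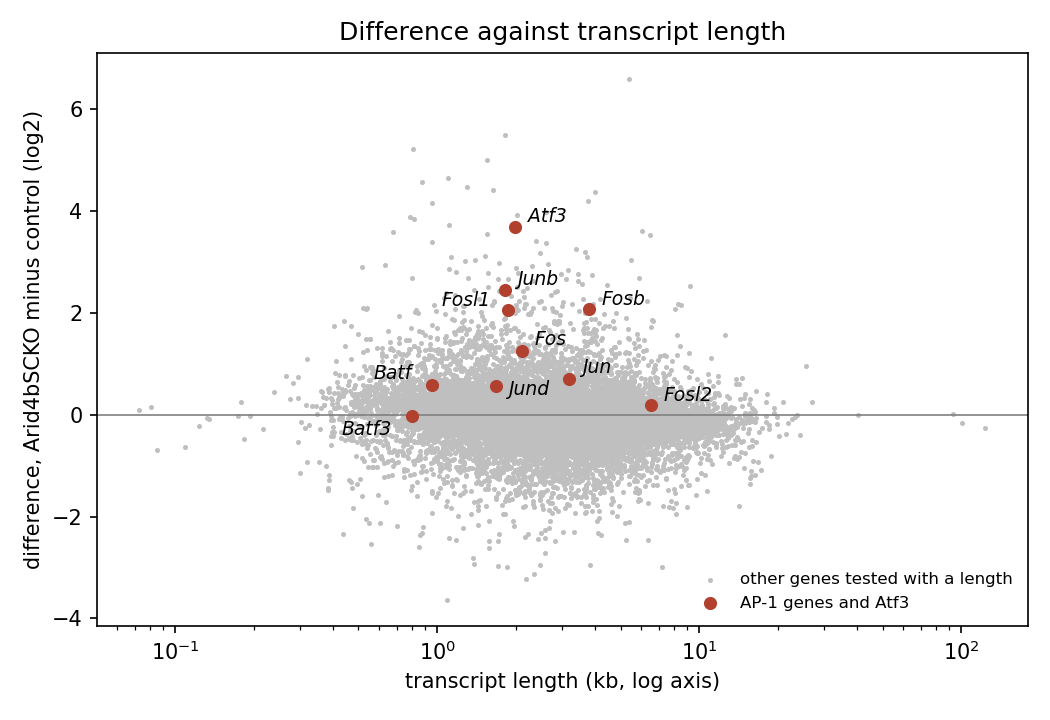
Difference between the groups (log2) against transcript length (kb, log axis) for the tested genes with a length (grey) and the 10 members (red). Atf3 and Junb, with transcripts of 1984 and 1809 bases, lie above most genes of similar length, and Batf3, with 801 bases, lies at -0.02.

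The other bZIP genes, some of whose proteins can pair with Jun or Fos proteins, were called higher more often than lower. Of these 34 genes, 15 were called higher and 3 lower, where 7.37% and 6.46% of all tested genes were, and their median difference was 0.28. Creb3, a membrane-bound bZIP factor, rose from 10.56 to 11.99, a difference of 1.43 (95% interval 1.02 to 1.85). Cebpb, an inflammatory C/EBP factor, rose by 1.12 (0.88 to 1.36). Mafk, a small Maf protein gene, was at 0.14 (0.09 to 0.19) and was not called. The 3 genes called lower, given for their small number after their values were seen, were Mafa (-1.74), Tef (-1.24) and Cebpa (-1.09). Of the 15 called higher, those with the largest differences, also named for their values, were Nfe2l3 (2.09), Maff (1.70) and Cebpd (1.61).

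Textbook target genes of AP-1 were higher where they were called. Of 25 genes 23 were tested, and 13 were called higher and 0 lower, where 7.37% and 6.46% of all tested genes were. At a deposited p below 0.05, 0 were lower as well, and the median difference was 0.56. Hbegf, an EGF family ligand, was at 0.56 (95% interval 0.40 to 0.73), the ferritin gene Fth1 at 0.36 (0.24 to 0.48) and the metallothionein gene Mt1 at 0.68 (0.51 to 0.85), all called. The chemokine gene Ccl2, named here once its value was known, had the largest difference of the list, 3.85 (1.35 to 6.34), and rose from 2.66 to 6.51. Mmp10, named for its value and also called higher, was listed at 0 in control and at 2.98 in Arid4bSCKO, and Mmp3 and Mmp13 fell below the level minimum.

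Immediate-early genes outside AP-1 showed 14 of 30 called higher and 0 lower, where 7.37% and 6.46% of all tested genes were. At a deposited p below 0.05, 1 was lower, and the median difference was 0.43. Rhob, a small GTPase gene that also passed the authors' FDR, rose by 1.29 (95% interval 1.05 to 1.52), Gadd45b, a growth arrest gene, by 1.59 (1.15 to 2.03) and Dusp6, a phosphatase gene of the ERK pathway, by 0.53 (0.40 to 0.66). Dusp1, the phosphatase gene that is induced together with Fos in many cells, was at 0.26 (-0.06 to 0.58) and was not called. The Egr and Nr4a genes, named once their values were known, were not called either. Egr1 was at 0.31, Egr2 at 0.34, Egr3 at 0.48 and Egr4 at 0.27, and Nr4a1 at -0.20, Nr4a2 at -0.28 and Nr4a3 at 0.38. Ier3 and Cyr61, also named for their values, had the largest differences of the list and were both called higher. Ier3 rose by 3.09 (1.79 to 4.39) and Cyr61 by 2.51 (1.21 to 3.82).

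Genes that act upstream of AP-1 or limit it were counted in the same way. Kinase genes numbered 30, of which 2 passed as higher and 5 as lower (7.37% and 6.46% of all tested genes), and their median was -0.12. With the length trend removed, 2 were called higher and 1 lower. Map2k3, a kinase gene of the p38 pathway, was at 0.47 (95% interval 0.25 to 0.69), Rps6ka5 at -0.37 (-0.47 to -0.27) and Mapk9, which encodes a Jun N-terminal kinase, at -0.27 (-0.38 to -0.17), all called. Mapk8, the other widely expressed Jun N-terminal kinase gene, was at 0.06 (-0.18 to 0.30) and not called. Map2k6, also a kinase gene of the p38 pathway and named for its value, went the other way from Map2k3. It was called lower at -1.17 (-1.74 to -0.60), the largest difference of the list in size. None (0) of 7 genes of serum response factor and its cofactors was called by limma, while 1, Elk1, had a deposited p below 0.05. Srf was at -0.24 (-0.56 to 0.09), Elk1 at -0.28 (-0.48 to -0.08) and Myocd at 0.36 (-0.23 to 0.95). Of 13 repressor and ubiquitin ligase genes 1 was called in each direction, which is near the 7.37% and 6.46% of all tested genes. Jdp2, a bZIP repressor of AP-1 that also counts among the other bZIP genes, rose by 1.13 (0.63 to 1.63), and the pseudokinase gene Trib2 fell by 0.27 on the log2 scale. Once the length trend was removed, limma called 1 gene of this list higher and 0 lower, so Trib2 was no longer called. Rfwd2, which encodes the ubiquitin ligase COP1, was at 0.09 (0.04 to 0.13) and was not called.

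**Figure D5:**
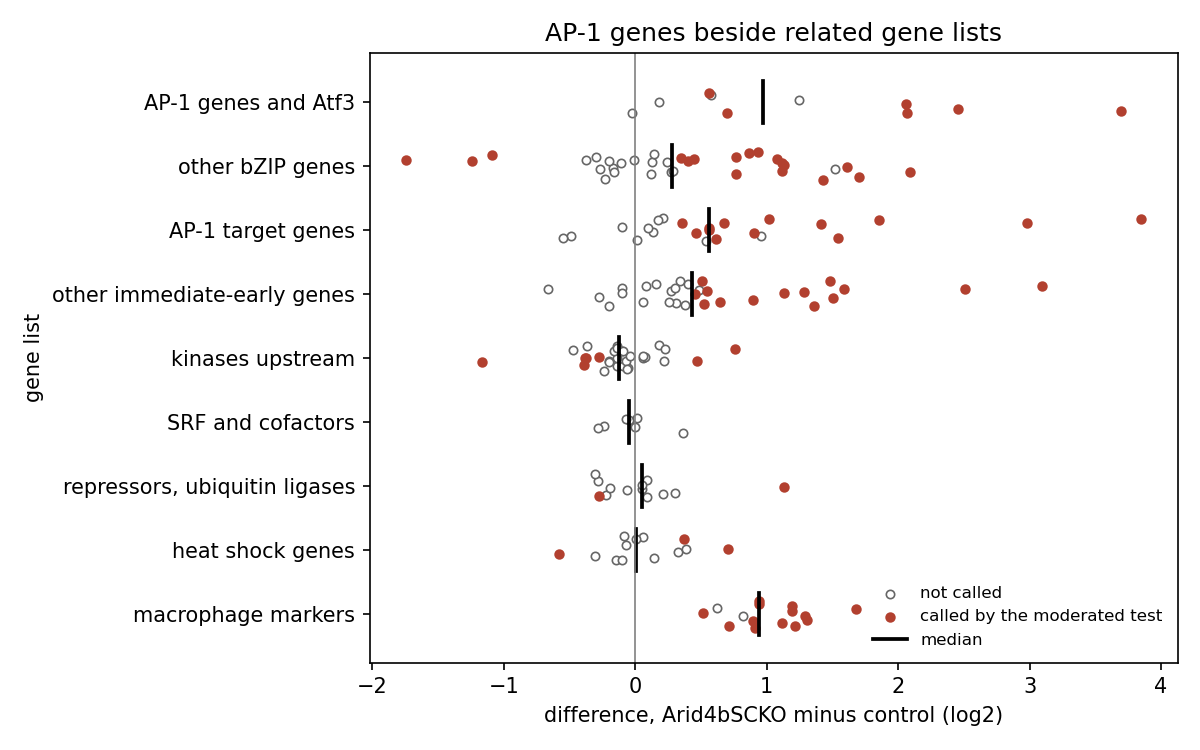
Differences (Arid4bSCKO minus control, log2) of the genes of each list that met the level minimum; filled points were called by the moderated test, open points were not, and black bars are medians. The median of the 10 members lies at 0.97, those of target genes and other immediate-early genes at 0.56 and 0.43, and those of upstream kinases and serum response factor genes at -0.12 and -0.05.

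Cell type markers and heat shock genes were examined beside the members. For comparison, 7.37% of all tested genes were called higher and 6.46% lower. Markers of macrophages, the resident immune cells of the testis, were positive in all 15 genes and called higher in 13, with a median of 0.945. Their summed normalized count was 3684 in control and 8191 in Arid4bSCKO, and none was at 0 in either group. The 3 with the smallest deposited p were C1qa (1.20), C1qb (1.12) and Mrc1 (0.52), all called. Lymphocyte markers, relevant to Batf, summed to 95.2 and 111 with 0 of 8 called by limma and 0 at a deposited p below 0.05. Of 7 dendritic cell markers, relevant to Batf3, Itgax was called higher (1.66) and Flt3 lower (-1.93), and Zbtb46 (-0.23) was not called. Cd209a, named for its value, was listed at 0 in control and fell below the level minimum. The sums were 1301 in control and 1124 in Arid4bSCKO. Zbtb46 had the highest level of the list, at 9.95 and 9.72, and so the largest part of both sums. The 3 neutrophil genes and 5 erythroid genes had 0 limma calls and 0 genes at a deposited p below 0.05, with sums of 717.8 and 1054, and of 35670 and 54350, in control and Arid4bSCKO.

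Of 12 Sertoli cell markers 6 were called lower and 1 higher, where 6.46% and 7.37% of all tested genes were. Their summed count was 72820 in control and 41600 in Arid4bSCKO. Nr5a1 (-0.53) and Kitl (-0.81) were called lower and Cldn11 (0.95) higher. Germ cell markers had 2 of 10 called lower (sums 10460 and 7812). Of 6 fetal Leydig and 4 endothelial markers limma called 0 (0 and 1 at a deposited p below 0.05), and 1 of 4 peritubular myoid markers, Tagln, was called higher (0.67). In whole tissue, fewer cells of a type and less RNA per cell cannot be told apart, and the part of these shifts in the AP-1 differences was not tested. Heat shock genes, some of which respond to tissue handling as immediate-early genes do, numbered 13. Of these, 2 passed as higher and 1 as lower (7.37% and 6.46% of all tested genes), and the median was 0.0047. Among them Hspb1 was at 0.71 (95% interval 0.44 to 0.97), Hspa1b at -0.58 (-0.86 to -0.29) and Hsp90ab1 at -0.15 (-0.19 to -0.10), the last not called. The other gene called higher, named for its value, was Hspa5 at 0.37 (0.12 to 0.62). Records of dissection or RNA quality were not used here, and their part in the result was not tested. Amh was at 14.25 in control and 12.63 in Arid4bSCKO, Sox9 at 10.67 and 10.81 and the germ cell gene Ddx4 at 10.91 and 10.62, a check of the tissue in which each was present in both groups. Arid4b itself was at 10.19 in control and 8.68 in Arid4bSCKO, in the direction of the labels.

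The number of called members rested on how the spread was estimated. With neither robust fitting nor a trend of spread over level, limma called 2 members, Atf3 (adjusted p = 0.0223) and Junb (adjusted p = 0.0452), where 0.859% of tested genes were called higher. Jund, Fosl1, Jun and Fosb then had adjusted p-values of 0.0775, 0.0784, 0.105 and 0.130. In that setting 2 of the other bZIP genes, 1 of the target genes and 4 of the other immediate-early genes were called higher. So were 1 of the macrophage markers and 1 of the peritubular myoid markers. In the kinase, serum response factor, repressor, heat shock, Sertoli cell and germ cell lists 0 genes were called in either direction.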

How the data were processed

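Poly(A) RNA of 6 pools was sequenced. Per the submitters' processing notes, STAR 2.4 and mm10 were used; the sources used here do not give the counting, its use of strand or the normalization. Per the file headers, the deposited table holds the authors' log2 group means, a log2 ratio of medians, an unadjusted p-value of an equal-variance comparison and its FDR. Levels of 0 and single reads show a pseudocount of 1. The starts in the table count from 0 and are printed from 1.

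The standard error of a difference follows from the deposited p-value at 4 degrees of freedom. For 16 genes with 1 read in each control library and none in Arid4bSCKO, the p recomputed from the values of single reads was 3.06e-08 and the deposited p 3.14e-08. The implied variances of 19095 genes whose mean level reached 1 were moderated with limma 3.58.1 (squeezeVar, trend on level, robust) in R 4.3.3 and tested across all genes, with Benjamini-Hochberg adjustment. The code was tested on simulated data. The 529 rows with a filled-in value of 0.1 in 1 library were left out of the moderated test in every setting, also without the level minimum. Transcript lengths came from GENCODE M21 and covered 89.2% of genes. Reads per library were estimated from the worth of 1 read, 1.20 to 1.25 normalized counts in control and 1.28 to 1.45 in Arid4bSCKO. No label states whether the pools are separate litters, and p-values then describe only the spread among these pools, which may be technical.

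The members and gene lists were chosen with earlier results of these data known. Named from each list are the 3 tested genes with the smallest deposited p, plus Srf, Mapk8 and Dusp1. Marker lists without such names are given by counts, Amh, Sox9 and Ddx4 check the tissue, and the others are named for their values. Alternatives covered the adjustment, the prior of the spread, the level minimum, centring, transcript length, the pseudocount and medians.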

Additional observations from a re-analysis of the deposited data

How the results depend on the processing

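None of the members (0) passed the authors' FDR when their p-values were adjusted only over genes at a level of 1 or more or with at least 5 normalized counts, whereas 5 had an unadjusted p below 0.05. The moderated test called 2 members without trend and robust fitting, also with the length trend removed in addition (2, a setting chosen after seeing the data), and from 5 to 7 under the other 6 settings. Batf3, not called in any setting, changed sign when centred on a trend over level (0.042) or on the median (0.011). Of the values of single members under these alternatives, the medians and a pseudocount of 5 included, 88 kept their direction and side of the threshold or moved by less than 1 SD, 9 lost the call and 1 (Fos) gained it. Separated pools numbered 6 with the length trend removed, also chosen after seeing the data. Leave-one-out fits and another pseudocount per pool were not run. No paired analysis was possible because the tests rest on group means and p-values, which carry no replicate number.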
